A study of Mus musculus with 4 samples.

Results

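The 9 genes described here, Actb, B2m, Gusb, Hprt, Hsp90ab1, Ppia, Rpl13a, Tbp and Tuba1b, serve as reference genes: their transcripts are taken as steady, and other transcripts are measured against them. They were read by the probes whose identifier in the scanner files is the RefSeq mRNA accession of 1 of these genes, 9 of the 15 probes that carry such an accession and 9 of the 60900 noncontrol probes analysed. Each of these probes was printed in 20 spots per array. The samples were 4 cultures of 2 mouse lines: 3T3-L1, which is already committed to the fat lineage, and C3H10T1/2, multipotent mesenchymal cells with the look of fibroblasts. RNA of each line was taken before adipocyte differentiation was induced (day 0) and 4 days after induction (day 4), with 1 array per line and day. No genetic change or other treatment is given in the labels for any group, and the induction medium is not described here. Probes for adipocyte markers have no gene name in the files, so how far each culture had differentiated was not checked.

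Reference genes come from unlike parts of cell biology, so that 1 regulated process should not move all of them. Actb and Tuba1b encode the cytoplasmic beta-actin and an alpha-tubulin, the building blocks of microfilaments and microtubules. Ppia encodes cyclophilin A, a prolyl isomerase, and Hsp90ab1 the constitutive cytosolic form of the chaperone HSP90. Rpl13a encodes a protein of the large ribosomal subunit, and Tbp the TATA-binding protein used in transcription initiation. Hprt encodes the purine salvage enzyme hypoxanthine phosphoribosyltransferase, Gusb the lysosomal enzyme beta-glucuronidase, and B2m beta-2 microglobulin, the invariant chain of MHC class I. Adipocyte formation remodels the cytoskeleton, the cell cycle and metabolism, which are the processes in which several of these genes act.

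A RefSeq promoter window (build GRCm38.p6) was found for 7 of the 9 genes, and those of Actb and Hsp90ab1 were not found. The sequences below are the 250 bases before the transcription start, 5′ to 3′ on the gene's strand. They are shown for the 3 genes with a window whose signal differed most between days in 3T3-L1 (B2m, Gusb and Hprt) and for 2 genes whose ratio varied little (Ppia and Tuba1b). Capitals mark matches on either strand to the TATA box letters TATAAA, the CCAAT box letters CCAAT or the GC box letters GGGCGG, and no 2 matches overlapped.
B2m, chr2:122147437-122147686, plus strand: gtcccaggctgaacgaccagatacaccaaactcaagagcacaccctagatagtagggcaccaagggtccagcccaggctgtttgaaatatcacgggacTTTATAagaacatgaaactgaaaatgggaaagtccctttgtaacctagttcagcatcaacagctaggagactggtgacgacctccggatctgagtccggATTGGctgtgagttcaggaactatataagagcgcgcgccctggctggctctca
Gusb, chr5:130003050-130003299, minus strand: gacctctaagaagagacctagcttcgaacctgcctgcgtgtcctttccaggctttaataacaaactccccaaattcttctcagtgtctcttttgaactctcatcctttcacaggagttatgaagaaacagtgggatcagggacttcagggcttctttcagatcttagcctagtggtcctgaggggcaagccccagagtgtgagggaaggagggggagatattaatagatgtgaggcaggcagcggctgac
Hprt, chrX:52987828-52988077, plus strand: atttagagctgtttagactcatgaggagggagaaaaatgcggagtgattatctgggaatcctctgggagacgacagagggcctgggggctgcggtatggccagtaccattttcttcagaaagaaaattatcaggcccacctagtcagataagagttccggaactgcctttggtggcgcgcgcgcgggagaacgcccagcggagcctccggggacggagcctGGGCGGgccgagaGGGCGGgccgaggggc
Ppia, chr11:6415617-6415866, plus strand: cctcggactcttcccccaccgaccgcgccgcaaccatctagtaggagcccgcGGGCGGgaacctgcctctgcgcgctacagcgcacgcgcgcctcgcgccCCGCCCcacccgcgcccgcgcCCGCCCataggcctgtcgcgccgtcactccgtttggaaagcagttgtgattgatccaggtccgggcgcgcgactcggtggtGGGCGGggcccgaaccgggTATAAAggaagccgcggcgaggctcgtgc
Tuba1b, chr15:98934391-98934640, minus strand: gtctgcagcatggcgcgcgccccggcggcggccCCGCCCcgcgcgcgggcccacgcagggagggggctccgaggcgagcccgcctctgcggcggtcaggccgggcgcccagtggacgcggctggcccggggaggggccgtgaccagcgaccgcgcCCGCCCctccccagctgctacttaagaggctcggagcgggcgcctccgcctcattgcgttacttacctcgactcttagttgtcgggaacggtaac
GC box letters were found in 5 of the 7 windows (Hprt, Ppia, Rpl13a, Tbp and Tuba1b), against 32.7% of 32851 windows of the same length in the table. CCAAT was found in 2 (B2m and Rpl13a), against 33.8%, and TATAAA in 2 (B2m and Ppia), against 12.4%. Ppia held 4 GC box matches and a TATAAA match on the gene's strand that began 29 bases before the start. The TATAAA match of B2m lay on the opposite strand, 152 bases before the start. G and C made up 72.4% of the Ppia window and 75.6% of the Tuba1b window, against a median of 52.4% over all windows, and 49.6% and 50.8% of those of Gusb and B2m. The share was 59.6% for Hprt, 58.8% for Rpl13a and 52.0% for Tbp. These are matches of letters in a window, not sites shown to be used.

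All 9 probes were bright on all 4 arrays, with every one of their 20 spots above background and none saturated. Mean intensities ran from 724 units for Tbp in C3H10T1/2 at day 4 to 148181 units for Ppia in C3H10T1/2 at day 0. The Ppia probe stood near the top of the range of the arrays, with between 0.0328% and 0.0772% of all probes brighter, against 14.7% to 17.9% for Tbp. A level below is the mean log2 processed intensity of a probe's spots minus the 75th percentile of all probes on the same array. Each ± is the SD over the spots of a probe, of which 13 to 20 were kept per array after spots marked as outliers were left out. This SD describes single spots, so the mean over a probe's spots is known more closely. The error is technical, within these arrays, and with 1 array per group nothing measures the spread between cultures. Levels of different probes were not compared with each other, since probes differ in brightness for the same amount of RNA.

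In this setting the genes differed by modest amounts, and which gene was steadiest depended on whether days or lines were compared. Between days, Tuba1b and Rpl13a had the smallest mean size of difference over both lines (0.09 and 0.14). In C3H10T1/2 alone Gusb had the smallest in the main values (-0.08). Under quantile normalization Gusb had -0.21 in that line, against 0.04 for Tuba1b and -0.07 for Rpl13a. Hprt, Gusb and B2m had the largest in 3T3-L1. Between lines, Actb and Tuba1b had the largest mean size of difference over both days and B2m and Tbp the smallest, an order that changed under quantile normalization. None of the 9 passed limma for day or for line, against 2.94% and 3.0% of all probes, which does not show that they were steady.

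**Figure D1:**
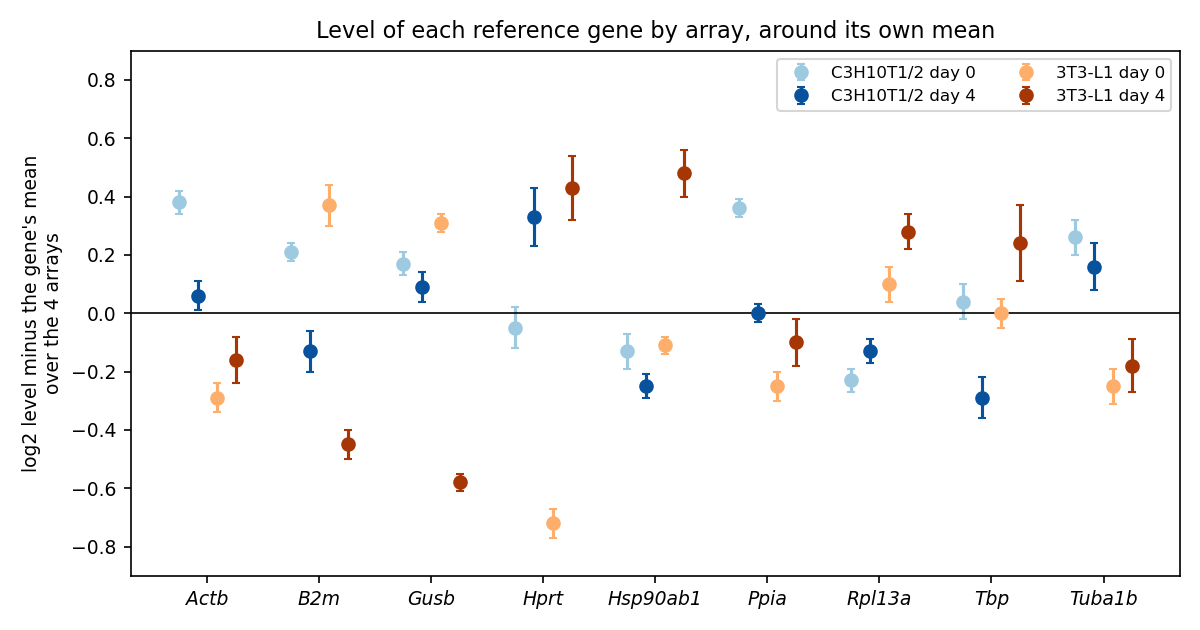
Level of each gene on each of the 4 arrays (log2 units, vertical axis) minus that gene's own mean over the arrays; points are arrays, coloured by line and day, and bars are the SD over spots. Hprt reached from 0.72 below its mean in 3T3-L1 at day 0 to 0.43 above it in 3T3-L1 at day 4, the widest spread of the 9.

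The levels of the cytoskeletal gene Actb were 5.72 ± 0.04 and 5.40 ± 0.05 in C3H10T1/2 at days 0 and 4, and 5.05 ± 0.05 and 5.18 ± 0.08 in 3T3-L1. C3H10T1/2 was higher than 3T3-L1 on both days, by most at day 0, where the log2 difference of 3T3-L1 from C3H10T1/2 was -0.67 ± 0.05 (1.6-fold). At day 4 that difference was -0.22 ± 0.06. Between days Actb was 1.25-fold lower in C3H10T1/2 (-0.32 ± 0.06). In 3T3-L1 it was 1.1-fold higher (0.13 ± 0.07), which was between -0.07 and 0.24 under 5 other scalings, below 0 in 3 of them.

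The alpha-tubulin gene Tuba1b had levels of 8.24 ± 0.06 (day 0) and 8.13 ± 0.08 (day 4) in C3H10T1/2, and in 3T3-L1 of 7.73 ± 0.06 (day 0) and 7.80 ± 0.09 (day 4). The days of 3T3-L1 differed by less than the SD over spots, with day 4 higher at 17 of 20 spots, and both lay below C3H10T1/2. Its day differences were -0.12 ± 0.06 in the first line and 0.07 ± 0.08 in the other, the smallest mean size of the 9 genes, and neither kept its sign in all scalings. The difference between lines was -0.51 ± 0.05 at day 0 and -0.33 ± 0.06 at day 4. Tuba1b has near-identical copies, and Actb and Ppia have processed pseudogenes. Which of these transcripts the probes read was not tested.

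The prolyl isomerase gene Ppia followed the pattern of Actb, with levels of 8.85 ± 0.03 (day 0) and 8.49 ± 0.03 (day 4) in C3H10T1/2, and in 3T3-L1 of 8.24 ± 0.05 (day 0) and 8.39 ± 0.08 (day 4). It was highest in C3H10T1/2 at day 0 and lowest in 3T3-L1 at day 0, a difference of -0.61 ± 0.07 (1.53-fold). At day 4 the lines differed by -0.10 ± 0.08. The day 0 difference between lines depended on the scaling. It was -0.58 with the 75th percentile of probes above background on all arrays and -0.68 with the median, but -0.19 under quantile normalization, -0.27 with normexp followed by quantile normalization and -0.17 in the authors' deposited table. Tuba1b, the other gene at the top of the intensity range, moved the same way, from -0.51 to -0.10, -0.07 and -0.11 in those 3, whereas Actb stayed between -0.74 and -0.60 over all 5 scalings.

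The chaperone gene Hsp90ab1 had levels of 6.26 ± 0.06 (day 0) and 6.14 ± 0.04 (day 4) in C3H10T1/2, and in 3T3-L1 of 6.28 ± 0.03 (day 0) and 6.87 ± 0.08 (day 4). The 3T3-L1 day 4 array was the high one. There it was 1.5-fold higher than at day 0 (0.59 ± 0.08, and 0.43 to 0.69 under the other scalings) and 1.65-fold higher than in C3H10T1/2 at day 4 (0.73 ± 0.10). At day 0 the lines differed by 0.02 ± 0.07, less than the SD over spots. In C3H10T1/2 the day difference was -0.12 ± 0.08, and -0.35 to -0.08 under the other scalings.

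The ribosomal protein gene Rpl13a had levels of 4.91 ± 0.04 (day 0) and 5.01 ± 0.04 (day 4) in C3H10T1/2, and in 3T3-L1 of 5.24 ± 0.06 (day 0) and 5.42 ± 0.06 (day 4). It was higher in 3T3-L1 on both days, by 0.33 ± 0.07 and 0.41 ± 0.07, and these were the only differences of Rpl13a that kept their sign under all 5 other scalings. Day differences were 0.10 ± 0.05 in C3H10T1/2 and 0.18 ± 0.08 in 3T3-L1, each below 0 in 3 of the 5. Of the 9 genes, Rpl13a had the smallest value for its largest difference over both days and both lines, 0.41, but under quantile normalization that of Ppia was smaller (-0.19).

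Tbp, the dimmest of the probes, had levels of 1.32 ± 0.06 (day 0) and 0.99 ± 0.07 (day 4) in C3H10T1/2, and in 3T3-L1 of 1.28 ± 0.05 (day 0) and 1.52 ± 0.13 (day 4). The lines differed by less than the SD over spots at day 0 (-0.04 ± 0.08) and by more at day 4 (0.53 ± 0.12). The day difference was lower in C3H10T1/2 (-0.33 ± 0.06, at 19 of 19 spots) and higher in 3T3-L1 (0.24 ± 0.11, at 19 of 20 spots). Both signs held under all 5 other scalings, with ranges of -0.40 to -0.28 and 0.16 to 0.35. The day differences of the lines were apart by 0.57 ± 0.09, which has no test with 1 array per group.

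The purine salvage gene Hprt was the least steady by most measures, with levels of 6.66 ± 0.07 (day 0) and 7.04 ± 0.10 (day 4) in C3H10T1/2, and in 3T3-L1 of 5.99 ± 0.05 (day 0) and 7.14 ± 0.11 (day 4). The 3T3-L1 day 0 array was the low one, and the day 4 arrays of the lines differed by less than the SD over spots (0.09 ± 0.14). In 3T3-L1 the day 4 level of Hprt was 2.22-fold the day 0 level (1.15 ± 0.09), in C3H10T1/2 1.31-fold (0.39 ± 0.12), and Hprt was the only one of the 9 past 2-fold between days in these values. Under the other scalings the 3T3-L1 value ran from 0.98 to 1.25, on both sides of 2-fold. Which genes passed 2-fold in 3T3-L1 depended on the scaling: B2m and Gusb did under quantile normalization, B2m alone with normexp and quantile normalization, and B2m and Hprt with the authors' deposited table. At day 0 Hprt was 1.59-fold lower in 3T3-L1 than in C3H10T1/2 (-0.67 ± 0.08).

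The lysosomal enzyme gene Gusb had levels of 3.28 ± 0.04 (day 0) and 3.20 ± 0.05 (day 4) in C3H10T1/2, and in 3T3-L1 of 3.42 ± 0.03 (day 0) and 2.53 ± 0.03 (day 4). The 3T3-L1 day 4 array was low and the other 3 lay close together. Gusb was 1.86-fold lower at day 4 in 3T3-L1 (-0.89 ± 0.04), against -0.08 ± 0.06 in C3H10T1/2. Under the other scalings these ran from -1.01 to -0.79 and from -0.21 to -0.04. At day 4 Gusb was 1.6-fold lower in 3T3-L1 than in C3H10T1/2 (-0.67 ± 0.07).

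B2m, the histocompatibility light chain gene, had levels of 7.13 ± 0.03 (day 0) and 6.78 ± 0.07 (day 4) in C3H10T1/2, and in 3T3-L1 of 7.28 ± 0.07 (day 0) and 6.47 ± 0.05 (day 4). Both day 4 arrays were below both day 0 arrays. The day differences were -0.35 ± 0.07 in C3H10T1/2 and -0.81 ± 0.06 (1.76-fold) in 3T3-L1. They stayed below 0 in all 5 other scalings, with -0.48 to -0.31 and -1.11 to -0.71. Between lines B2m was higher in 3T3-L1 at day 0 (0.15 ± 0.08, and 0.42 under quantile normalization) and lower at day 4 (-0.31 ± 0.08).

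**Figure D2:**
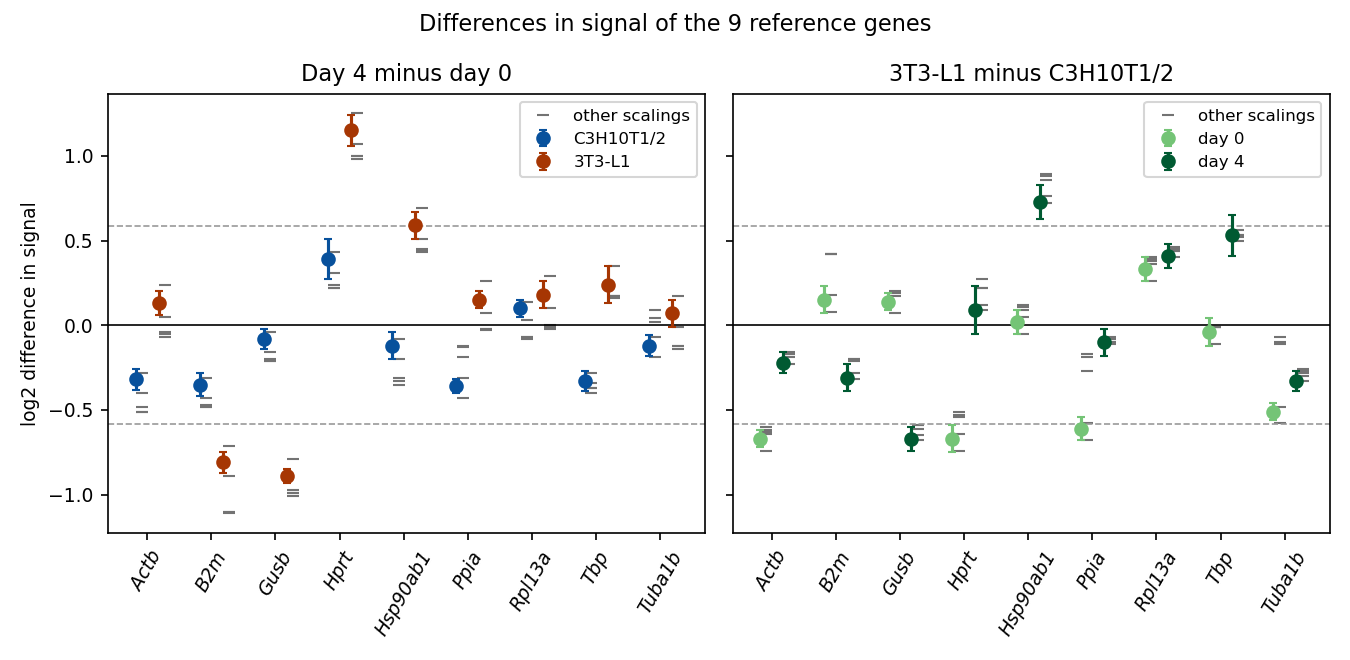
Log2 differences in level between days in each line (left) and between lines at each day (right) for each gene; bars are the SD over spots, grey marks are the same differences under the 5 other scalings, and dashed lines mark 1.5-fold. In 3T3-L1, Hprt and Hsp90ab1 (by less than its spot SD) lie above and B2m and Gusb below the 1.5-fold lines, and in C3H10T1/2 all 9 lie between them.

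The counts of genes past 1.5-fold were read against the share of all probes past it. In C3H10T1/2, 0 of 9 differed at least 1.5-fold between days, against 33.6% of the 38303 probes that cleared background at day 0, day 4 or both, and 0 of 9 at least 2-fold, against 16.1%. In 3T3-L1, 4 of 9 did, against 39.1% of 40237. Hprt and Hsp90ab1 were the 2 higher ones (18.8% of probes) and B2m and Gusb the 2 lower ones (20.3%). Hsp90ab1 lay at the threshold, and without it the count was 3 under 4 of the 5 other scalings, with spot medians and with normexp and no quantile step. In the main values 1 of 9 differed at least 2-fold, against 19.1%. Between lines 3 of 9 passed 1.5-fold at day 0 (Actb, Hprt and Ppia), against 31.0% of 39960 probes. All 3 were lower in 3T3-L1 (15.5% of probes) and 0 were higher (15.4%), and Actb alone passed under quantile normalization and with the authors' values. At day 4, 2 of 9 did, against 32.9% of 38917, with Gusb lower (16.8% of probes) and Hsp90ab1 higher (16.1%). None passed 2-fold between lines, against 14.0% of probes at day 0 and 14.9% at day 4. The median size of the log2 difference over the 9 genes was 0.32 and 0.24 between days in C3H10T1/2 and 3T3-L1, and 0.33 between lines on each day. Over all probes these medians were 0.39, 0.45, 0.36 and 0.39 in the same order. The probes at large include dim ones, whereas the 9 are bright.

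Over both lines, limma (lmFit and eBayes with terms for line and day, Benjamini-Hochberg adjustment over 38333 probes) called 0 of the 9 genes for day, against 2.94% of all probes, and 0 for line, against 3.0%. With an unadjusted p under 0.05 there were 0 of 9 for either term, against 18.5% of probes for day and 13.9% for line. The largest mean day differences were those of Hprt, 0.77 ± 0.33 (SE, limma adjusted p = 0.31, higher at day 4 in 2 of 2 lines), B2m, -0.58 ± 0.30 (limma adjusted p = 0.394, lower in 2 of 2) and Gusb, -0.49 ± 0.34 (limma adjusted p = 0.533, lower in 2 of 2). The largest mean line differences were those of Actb, -0.45 ± 0.30 (limma adjusted p = 0.615) and Tuba1b, -0.42 ± 0.29 (limma adjusted p = 0.624), both lower in 3T3-L1 on 2 of 2 days. With 4 arrays and 3 coefficients, 1 residual degree of freedom is left, which is how unlike the day difference is in the lines. These p-values therefore do not measure the spread between repeated cultures, and a p that misses the threshold does not show that a gene was steady.

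A ratio between 2 of the genes on the same array does not change when the array is divided by 1 factor, but quantile normalization, which reshapes each array's distribution, can change it. For each of the 36 pairs, the SD of the log2 ratio was taken over the 4 arrays, which are 4 conditions and not replicates. This SD ran from 0.06 to 0.86 with a median of 0.47, while the error that the spots alone give to a ratio was between 0.01 and 0.03. The steadiest ratio was that of Actb to Ppia, which stayed within 1.09-fold over the arrays (SD 0.06, log2 range 0.12). This did not hold under quantile normalization, where the Actb to Ppia ratio had an SD of 0.22 and ranged over 1.39-fold, or with the authors' deposited table (0.22 and 1.40-fold). In both the steadiest ratio was Ppia to Tuba1b (0.08). Quantile normalization sets each rank to 1 value on all arrays, and both of these probes stood near the top ranks. How far that step alone steadied their ratio was not tested. In the main values the next steadiest were Actb with Tuba1b (0.09) and Ppia with Tuba1b (0.11). The ratios of Gusb and of B2m to Hprt varied most there, each with an SD of 0.86. Gusb relative to Hprt ranged over 4.12-fold, and its log2 ratio was lower at day 4 than at day 0 by -2.04 in 3T3-L1 and -0.47 in C3H10T1/2.

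The 7 ratios with an SD below 0.2 joined the genes into 3 groups, a division made after the values were seen. Actb, Ppia and Tuba1b formed the first (3 pairs), Hsp90ab1, Rpl13a and Tbp the next (3 pairs, 0.18 to 0.19), and B2m and Gusb the last (0.16), with Hprt in none. The lowest SD among the other 29 pairs was 0.35, for Ppia and Tbp. Under quantile normalization and with the authors' deposited table, 3 of these 7 ratios stayed below 0.2, and with normexp followed by quantile normalization 4 did. The highest SD of the 7 was then 0.26, 0.25 and 0.26 in that order. The lowest of the other 29 was 0.26, 0.26 and 0.27, so the gap between 0.19 and 0.35 was lost and the groups were no longer set apart. A steady ratio says only that 2 genes moved alike: in the main values Actb and Ppia were both lower in 3T3-L1 than in C3H10T1/2 at day 0 (-0.67 and -0.61). Under quantile normalization those were -0.63 and -0.19, a difference of -0.44 in the ratio. Without the 3T3-L1 day 0 array, 5 of the other 29 pairs fell below 0.2, with Actb and B2m lowest at 0.06. Without the 3T3-L1 day 4 array 5 did, with Gusb and Hsp90ab1 lowest at 0.06.

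**Figure D3:**
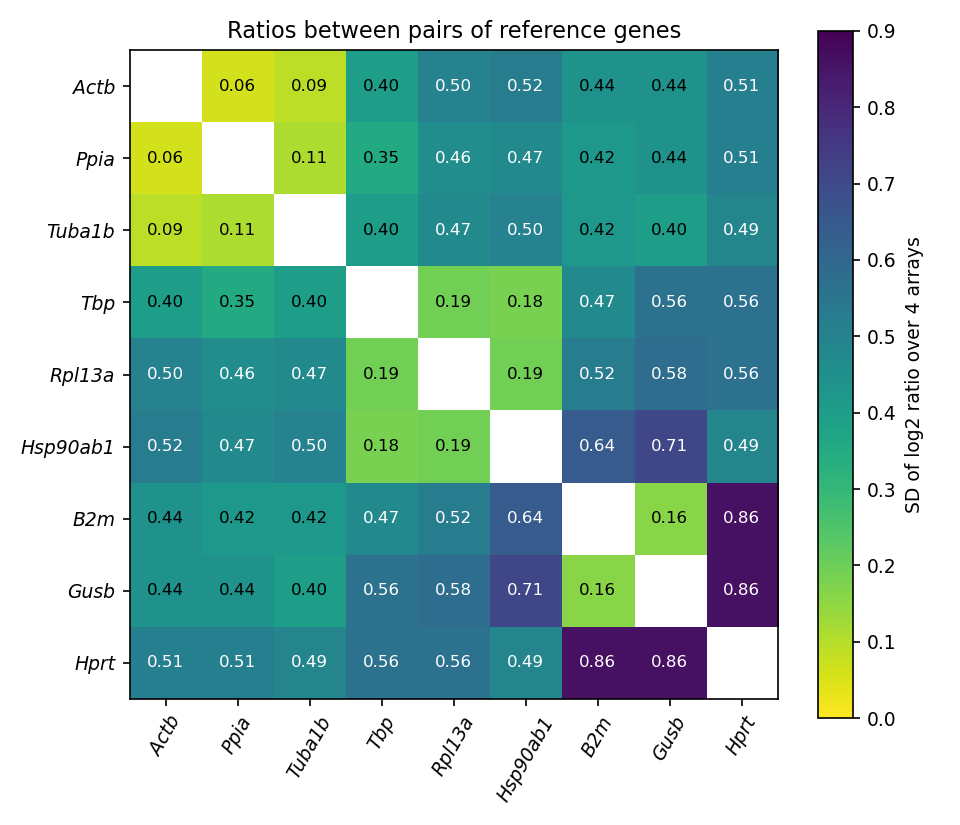
SD over the 4 arrays of the log2 ratio of each pair of genes, written in each cell and shown by colour from 0 (yellow) to 0.9 (dark). The light blocks along the diagonal are the pairs below 0.2, and the darkest cells are B2m and Gusb against Hprt, at 0.86.

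Within lines and days, 19 of the 36 ratios differed at least 1.5-fold between days in 3T3-L1 and 12 at least 2-fold, against 4 and 0 in C3H10T1/2. All 4 of the latter involved Hprt, with Actb, B2m, Ppia and Tbp. In 3T3-L1, 7 of 8 ratios of Hprt, of Gusb and of B2m passed 1.5-fold, against 3 of 8 for Actb, Ppia, Rpl13a, Tbp and Tuba1b and 2 of 8 for Hsp90ab1. Between lines 17 ratios passed 1.5-fold at day 0 and 16 at day 4. A total of 7 of the 36 stayed within 1.5-fold in all 4 comparisons. The 36 ratios share their genes, so they are not separate observations, and 1 gene that moves alone can carry most of its ratios past a threshold. The share of ratios between probes at large past either threshold was not counted. These counts therefore do not show whether the reference genes were more or less steady than other probes.

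Averaging the SDs of a gene's 8 ratios gives 1 value per gene, the measure that the geNorm method calls M, in which a lower value means steadier ratios. M was 0.35 for Ppia, 0.36 for Tuba1b, 0.37 for Actb, 0.39 for Tbp, 0.43 for Rpl13a, 0.46 for Hsp90ab1, 0.49 for B2m, 0.52 for Gusb and 0.61 for Hprt. The first 4 lie within 0.04 of each other, and their order changed when single arrays were left out. Removing the least steady gene step by step took out Hprt, Gusb, B2m, Hsp90ab1, Rpl13a, Tbp and Tuba1b and left Actb and Ppia.

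The order rested in part on single arrays. Without the 3T3-L1 day 4 array, M was lowest for Hsp90ab1 (0.26) and next for Gusb (0.28), which ranked 6 and 8 of 9 with all arrays, and the last pair of the stepwise removal was Gusb and Hsp90ab1. Without the 3T3-L1 day 0 array, B2m ranked 4, Hsp90ab1 ranked 9, and M of Hprt was 0.44. Leaving out either C3H10T1/2 array kept Hprt, Gusb and B2m in the last 3 places. With the authors' values, M of Actb was 0.43 (rank 5), and the last pair was Ppia and Tuba1b.

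**Figure D4:**
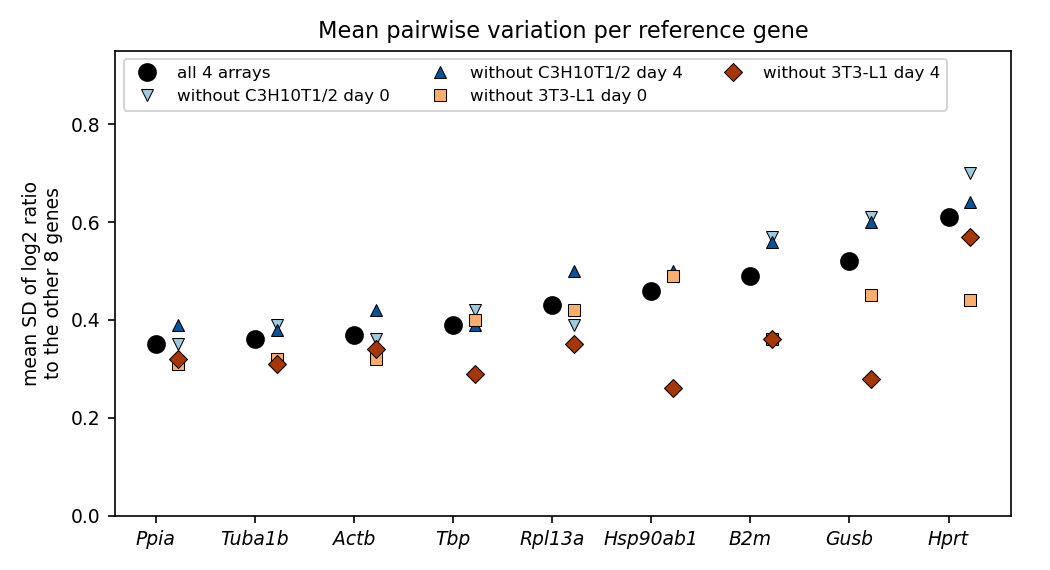
Mean SD of the log2 ratio of each gene to the other 8 (M, vertical axis) with all 4 arrays (black) and without each array in turn (coloured symbols). Values with all arrays run from 0.35 for Ppia to 0.61 for Hprt, and leaving out 3T3-L1 day 4 lowers Gusb to 0.28 and Hsp90ab1 to 0.26.

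The orders by ratio and by array scaling differed. By the mean size of its 4 differences after array scaling, Tuba1b and Rpl13a were the steadiest (0.26 each), followed by Tbp (0.28), Ppia (0.31), Actb (0.34), Hsp90ab1 (0.36), B2m (0.41), Gusb (0.45) and Hprt (0.57). Hprt and Gusb were last and next to last in both orders in the main values. By M under quantile normalization and with the authors' deposited table, Hprt stayed at rank 9, but B2m ranked 8 and Gusb 7. In the main values Rpl13a was steadier than Ppia by scaled levels and less steady by ratios. Under quantile normalization the mean size of the line differences was 0.13 for Ppia and 0.41 for Rpl13a. That of the day differences was 0.07 and 0.04, so the contrast by scaled levels did not hold for lines there. In day differences alone, Tuba1b had a mean size of 0.09 and Rpl13a 0.14, against 0.77 for Hprt. In line differences alone, B2m had the smallest mean size (0.23) and Actb the largest (0.45). Under quantile normalization and with the authors' deposited table the smallest were Ppia (0.13 and 0.12) and Tuba1b (0.18 and 0.19), the largest was Hsp90ab1 (0.49 in both), and B2m had 0.31 in both. The day order moved less. In those settings Rpl13a (0.04 and 0.03), Ppia (0.07 in both) and Tuba1b (0.08 in both) had the smallest mean sizes. B2m (0.79 in both) had the largest, and Hprt, with 0.60 and 0.61, ranked 7 and 8.

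Means of several genes varied less than most single genes. The size of a mean difference cannot exceed the mean size over its genes, so part of this is arithmetic and holds for any genes. The mean of all 9 log2 levels differed between days by -0.13 in C3H10T1/2 and 0.09 in 3T3-L1, and between lines by -0.21 at day 0 and 0.01 at day 4. Among single genes the smallest value of the largest of these 4 differences was that of Rpl13a, 0.41. Of 36 pairs, the mean of Rpl13a and Tuba1b had the smallest, 0.12. The members of that pair differed between lines in opposite directions (0.33 and -0.51 at day 0). Over all pairs the median was 0.36, and the highest was 0.87, for Hprt with Hsp90ab1. These combinations were picked on the same 4 arrays that they describe, so they carry no test, and they were computed with the array scaling only.

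The choice of a reference gene decided how many probes of the array counted as different between days in 3T3-L1. With the array's own scaling, 4273 probes were lower at day 4 by 2-fold or more and 3399 were higher, or 19.1% of 40237. Scaled to Tuba1b, 4730 were lower and 3020 higher, and scaled to Actb 5240 were lower and 2712 higher. Scaled to Hprt, 733 were higher and 23092 lower (59.2% of probes), and scaled to Gusb 18221 were higher and 1248 lower (48.4%). B2m gave 16128 higher and 1399 lower, and Hsp90ab1 1452 higher and 10706 lower. Probes that were lower made up 96.9% of those counted with Hprt and 6.41% with Gusb, against 55.7% with the array's scaling. In C3H10T1/2 the counts moved less, from 6210 probes in all with Gusb to 8109 with Hprt, against 6181 with the array's scaling. The split moved there too, with 75.8% lower with Hprt and 22.1% with Ppia, against 47.2%.

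**Figure D5:**
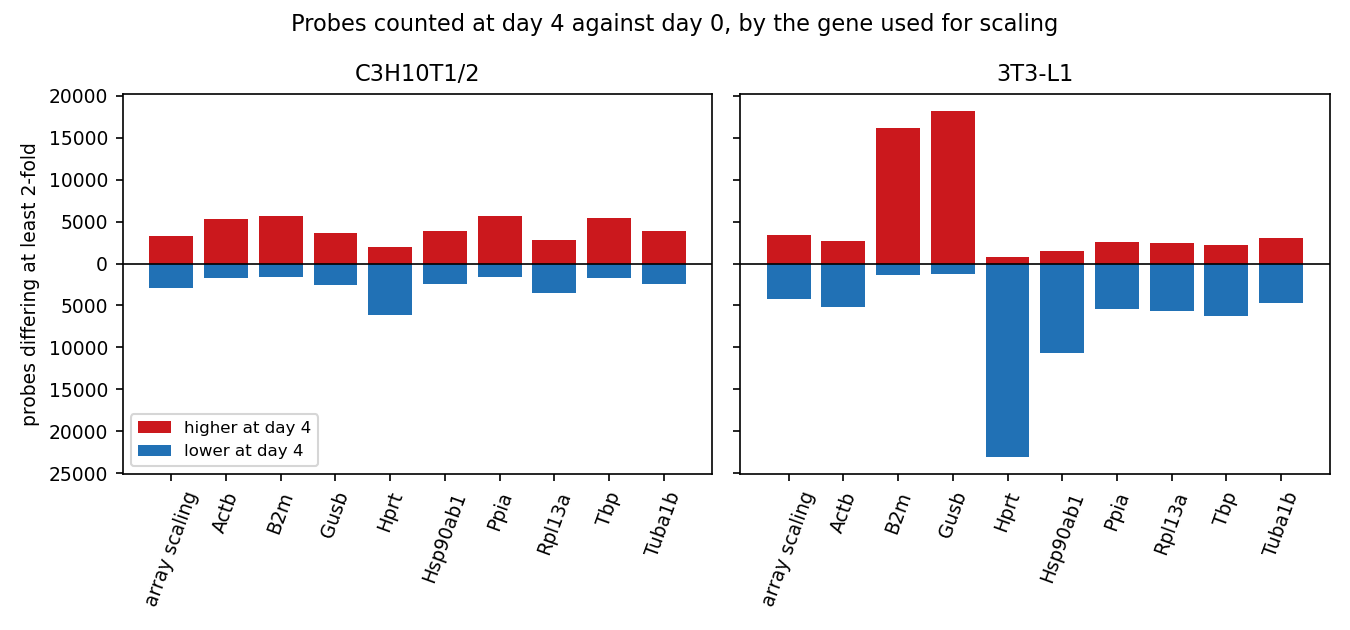
Number of probes at least 2-fold higher (red, upward) or lower (blue, downward) at day 4 in each line, when arrays are scaled to their own 75th percentile (first bar) or to 1 reference gene. In 3T3-L1 the bars for Hprt (23092 lower) and Gusb (18221 higher) stand out, and those for Tuba1b, Actb and Ppia stay near the first bar.

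Scaling to a gene takes that gene's own difference off every probe, so the values of other named genes shift by the differences given above. The transferrin receptor gene Tfrc, which some panels use as a reference, was higher at day 4 in 3T3-L1 by 0.97 on the log2 scale after array scaling. Relative to Gusb it was higher by 1.86 (3.63-fold), and relative to Hprt it had a value of -0.18. In C3H10T1/2 its value stayed between 2.71 and 3.45. Gapdh, the glycolytic enzyme gene often used as a reference, had values in 3T3-L1 from -0.45 relative to Hprt to 1.59 relative to Gusb, and 0.07 to 0.81 in C3H10T1/2. G6pd2, a copy of the glucose-6-phosphate dehydrogenase gene, stayed above 0 relative to all 9 in both lines, with 0.25 to 2.29 in 3T3-L1 and 1.07 to 1.81 in C3H10T1/2.

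Of the other genes used as references, the files name Gapdh, Tfrc and Nono by RefSeq accession, and also G6pd2, a copy of such a gene. Whether the G6pd2 probe also reads the gene it was copied from was not tested. Of these 4 genes, 3 differed at least 1.5-fold between days in each line, against 33.6% of probes in C3H10T1/2 and 39.1% in 3T3-L1. Their log2 differences lay between -0.76 and 3.09 in C3H10T1/2, and between 0.18 and 1.40 in 3T3-L1. The arrays' control probes for Gapdh and Pgk1 were higher at day 4 by 1.09 to 2.74 and by 1.19 to 2.53, with 12 of 12 past 1.5-fold in each line. Of these 12, 4 are named for mouse, with 1.09 to 2.37 in C3H10T1/2 and 1.19 to 2.27 in 3T3-L1, and 8 for human or rat. Mouse probes with names ending in _5 differed by more than those ending in _3. Gapdh had 1.71 (C3H10T1/2) and 2.27 (3T3-L1) against 1.09 and 1.32, and Pgk1 had 2.37 and 2.02 against 1.37 and 1.19. The human probes went the same way, whereas rat Pgk1 went the other way and rat Gapdh was mixed. The cause was not tested. The Gapdh probe with a RefSeq accession differed by less, 0.45 ± 0.05 and 0.70 ± 0.08. Taking the 14 named genes that were above background on all arrays as the panel, M was lowest for Gk, a glycerol kinase gene, at 0.45, and it was 0.47 for Ppia and for Tuba1b, 0.49 for Tbp and for Actb, and 1.34 for Tfrc, the highest. Hprt then ranked 10 of 14 and B2m and Gusb 11 and 12.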

How the data were processed

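RNA of 4 cultures (2 lines, 2 days) was measured on 1-colour Agilent arrays of the Arraystar mouse long noncoding RNA and mRNA design. Ribosomal RNA had been depleted, per the labels' protocols, and a mix of random and oligo(dT) primers was used to amplify along whole transcripts, with Cy3 as the dye. The deposited scanner files, made with Agilent Feature Extraction 11.0.1.1 per the file headers, give each spot's processed intensity (corrected for background by that software) and flags for outliers, saturation and spots well above background. The authors also deposited a table of log2 values by a method not given in the sources used here, which followed log2 intensity of its own array (r from 0.9994 to 1). It was used as an alternative only. The 4 arrays share 1 slide and 1 scan per the file headers, which leaves no batch to fit.

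Spots marked as outliers were left out and spots of a probe averaged on the log2 scale. The 75th percentile of the 60900 probes was subtracted (between 321 and 388 intensity units). A probe was taken as above background with at least 0.5 of its spots flagged so, which held for 59.0% to 63.9% of probes. In counts over all probes, a value below background was raised to that array's lowest signal above background where it lay under it. Accessions were matched without version to RefSeq (GRCm38.p6), and 15 of 15 matched. Coordinates are given for the promoter windows only, on that build, and the array design used another one. The other scalings were quantile normalization, the 75th percentile of probes above background on all arrays, the median, normexp on median spot and background intensities (offset 50) followed by quantile normalization, and the authors' values. The tools were R 4.3.3, limma 3.58.1, Python 3.11.15, pandas 2.3.3 and matplotlib 3.10.9, and the statistics were tested on simulated data. All 9 genes are named by rule, with other reference genes only as comparators. The genes and lists were chosen with earlier results of these data known.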

Additional observations from a re-analysis of the deposited data

Results flagged for a closer look

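Ppia had opposite day differences in the lines at every spot kept, lower in C3H10T1/2 (12 of 12 spots) and higher in 3T3-L1 (17 of 17). These differences were apart by 0.51 (log2), which was not tested, since each group has 1 array. Spots of 1 array share its scaling, so their agreement says nothing about that scaling. Ppia was not alone: 7 of the 9 genes were lower in C3H10T1/2 and 7 higher in 3T3-L1. Actb, Hsp90ab1, Tbp and Tuba1b had the same signs as Ppia, apart by 0.45, 0.71, 0.57 and 0.18. Hsp90ab1 and Tbp kept both signs under all 5 other scalings. Under quantile normalization the Ppia values were -0.13 (C3H10T1/2) and -0.02 (3T3-L1), and in the authors' deposited table they were -0.12 and -0.03, so the opposite signs were lost there.

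Control probes named ERCC, the name of a set of spike-in standards, were outside the comparisons. No spike-in is mentioned in the labels used here. Of 12 such probes, 2 were above background on all 4 arrays, at 70 of 70 spots per array, and between 71 and 78 of the 420 ERCC spots were above background in all. Signals of these probes, ERCC-00062_278 and ERCC-00097_63, were 58.5 and 77.8 units in C3H10T1/2 at day 0 and 101 and 113 in 3T3-L1 at day 4. Their scaled day differences were 0.33 and -0.51 for C3H10T1/2, against 0.62 and 0.16 for 3T3-L1, so they did not give 1 common offset.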

How the results depend on the processing

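With 1 array per group nothing measures the spread between cultures, and that number limits every value. No paired analysis was possible because the labels give no replicate numbers to pair the samples by. The line term of limma is the only block. Keeping spots marked as outliers was an alternative chosen after seeing the data, and it moved none of the 36 differences beyond its spot SD. Of 252 values of single differences under alternatives, 147 stayed within the spot SD of the main value and 105 did not. None of the differences past 1.5-fold changed sign. The median scaling moved the median of all probes in 3T3-L1 between days from 0.05 to 0.16, the only shift over 0.1. The count of genes past 1.5-fold between lines at day 0, 3 in the main values, was 1 under quantile normalization, 1 with normexp and quantile normalization and 1 with the authors' values. With a threshold of 2-fold it was 0 at day 0 and 0 at day 4, and 1 between days in 3T3-L1, by construction. Leaving out 1 array, M ran from 0.31 to 0.39 for Ppia and from 0.44 to 0.70 for Hprt. The lowest and highest counts of probes past 2-fold after scaling to 1 gene were 6210 and 8109 in C3H10T1/2, and the lowest was 7750 in 3T3-L1. With normexp and no quantile step these were 3735, 5376 and 4439, for causes that were not tested. Without a filter the lowest in C3H10T1/2 was 9473, counted over 60900 probes in place of 38303. Limma called 0 of the 9 genes under all alternatives for day and for line, with 0 to 2 at an unadjusted p under 0.05 and a lowest limma adjusted p of 0.156, with an intensity trend. Over all probes limma called between 0 (without the line term) and 4098 (without a filter) for day, against 1126, and between 234 and 3436 for line, against 1151.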
